A study of Mus musculus with 2 samples.

Results

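The initiation and elongation factors of translation were followed at single adenosines in native RNA of mouse retinal organoids. The genes were taken by name, as every gene whose symbol begins with Eif or Eef and a digit, a rule that uses no measured value. They came to 58 of the 8262 named genes listed in either of 2 replicates, with 53 of 5699 in replicate 1 and 57 of 8057 in replicate 2. RefSeq names 71 protein-coding genes of this pattern for the mouse (assembly GRCm38.p6), and the 13 others, among them Eif1, Eif3e, Eef1a2 and Eef2k, were listed in neither replicate.

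Both replicates were wild-type organoids of the Rx:GFP line, grown for 6 days with AGN at 0.1 µM. Stem cells of this line carry green fluorescent protein as a reporter of Rax, which marks the eye field of the embryo, and form retinal tissue as aggregates in culture. All samples shared genotype, line, treatment and time, so the design held 1 group with n = 2 and no contrast between conditions could be tested. The labels do not say whether the replicates came from separate cultures, so the spread between them may be technical. For eye field and retinal progenitors, 7 markers were listed in both replicates, while none of 4 markers each of pluripotent stem cells, retinal neurons, and mesoderm and endoderm were listed. A gene can be listed only where its reads cover 1 of the 5-mers given below, so a missing entry is not a level of 0.

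Translation begins when initiation factors bring the initiator tRNA and the small ribosomal subunit to the capped end of an mRNA and to its start codon. Elongation factors then deliver each aminoacyl-tRNA and move the ribosome along. Kinases, binding proteins and methyltransferases adjust these factors, and mRNAs of the translation machinery are themselves abundant in growing cells. N6-methyladenosine (m6A) is a methyl mark that the METTL3 complex places on adenosines of mRNA within a short sequence context, and readers of the mark are known to affect the decay and translation of the mRNAs that carry it.

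In direct RNA sequencing an unamplified RNA strand passes through a pore, and a modified base changes the current. For each position the deposited tables give the coverage, which is the count of reads over it, and the fraction modified, which runs from 0 to 1. Every listed position lay in 1 of 4 sequences of 5 bases (5-mers). They are shown here because the fraction differed by 5-mer, with the adenosine in capitals and in DNA letters.
Most frequent here: ggAca
Opening with adenosine: agAct
Last base cytosine: ggAcc
Classical m6A context: ggAct
The end coordinate of a listed position is used as its name below, counted from the 5′ end of the transcript. The 5-mers of 111 listed positions near a transcript's start were looked for in the first 50 transcribed bases of their RefSeq gene, which gave 50 matches over all offsets. The most frequent offset, with 24 matches against 3 for the next, put the end coordinate on base 4 of the 5-mer, so the adenosine at base 3 lay 1 base before it.

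Replicate 2 was the deeper library. It listed 50099 positions on 10942 transcripts, against 26441 positions on 7068 transcripts in replicate 1, with a median coverage of 12 and 10 reads. The Eif and Eef genes supplied 353 positions on 98 transcripts in replicate 2 and 239 positions on 75 transcripts in replicate 1. Their median coverage was 26 and 29 reads. A site was taken as a position with at least 20 reads, and a shared site as one that reached this in both replicates. The sites counted and described for each gene below are shared sites unless 1 replicate is named. For each gene the transcript with most sites was taken, summed over both replicates and shared or not (ties by coverage). On these transcripts 39 of the 58 genes held 106 shared sites, while 1837 other genes held 4723. That was 2.72 sites per gene in the translation factors, a name used below for all genes of the name rule, and 2.57 in other genes. Of the 58 genes, 11 are regulators and related genes, which held 15 of the 106 sites. The ratio of coverage, replicate 2 over replicate 1, had a median of 2.10 at the 106 sites (quartiles 1.76 and 2.57). The lower of the 2 coverages had a median of 61 reads, against 36 at sites of other genes.

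The translation factors were set beside all other genes within each 5-mer. At GGACA, the most frequent of the 5-mers, they read lower than other genes. The median fraction over 51 sites in 26 genes was 0.546 in replicate 1 and 0.529 in replicate 2, against 0.696 and 0.667 over 1811 sites of other genes. The difference was -0.150 and -0.138, a mean of -0.144 ± 0.00884 (SD, n = 2). The quartiles overlapped widely, at 0.291 and 0.863 for the translation factors and 0.381 and 0.911 for other genes in replicate 1. The lower median was present in each class of coverage, though the classes and the median per gene below were chosen after seeing the data. Where the lower coverage was 20 to 49 reads, the 19 sites of translation factors had medians of 0.609 and 0.539 against 0.688 and 0.667. At 50 to 99 reads, 16 sites had 0.462 and 0.443 against 0.743 and 0.736. Above that, 16 sites read 100 times or more in each library had 0.526 and 0.542 against 0.664 and 0.635. When each gene gave 1 median, the 26 genes had 0.546 and 0.506 against 0.675 and 0.643 over 1163 genes. These SDs cover the spread between the replicates. Since both replicates read the same sites of the same genes, they do not describe how far the median of another set of genes of this size would lie.

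Median fractions at the other 5-mers were lower than at GGACA, in the translation factors and in other genes. At GGACC, 19 sites had medians of 0.294 and 0.310 against 0.214 and 0.227 over 1036 sites, a difference of 0.0807 ± 0.00212 (SD, n = 2). It shrank to 0.0287 without a minimum of reads and to 0.0290 when sites did not have to be shared. At AGACT, 17 sites had 0.281 and 0.286 against 0.267 and 0.258 over 740 sites. That difference, 0.0208 ± 0.00930 (SD, n = 2), lost its sign when no minimum of reads was set (-0.00085). At GGACT, 19 sites had 0.214 and 0.2 against 0.267 and 0.245 over 1136 sites. The difference of -0.0486 ± 0.00541 (SD, n = 2) also turned, to 0.0168, without a minimum and to 0.0160 when sites did not have to be shared. The direction at AGACT and GGACT was thus not settled at this depth. GGACA made up 48.1% of the sites of translation factors and 38.3% of those of other genes. GGACT made up 17.9% and 24.1%, GGACC 17.9% and 21.9%, and AGACT 16.0% and 15.7%. Over the sites of replicate 2 alone, shared or not, the translation factors had 39.5% at GGACA and 24.4% at GGACT, so their composition depended on which sites were kept. The shares of other genes over replicate 2 alone were not computed.

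**Figure D1:**
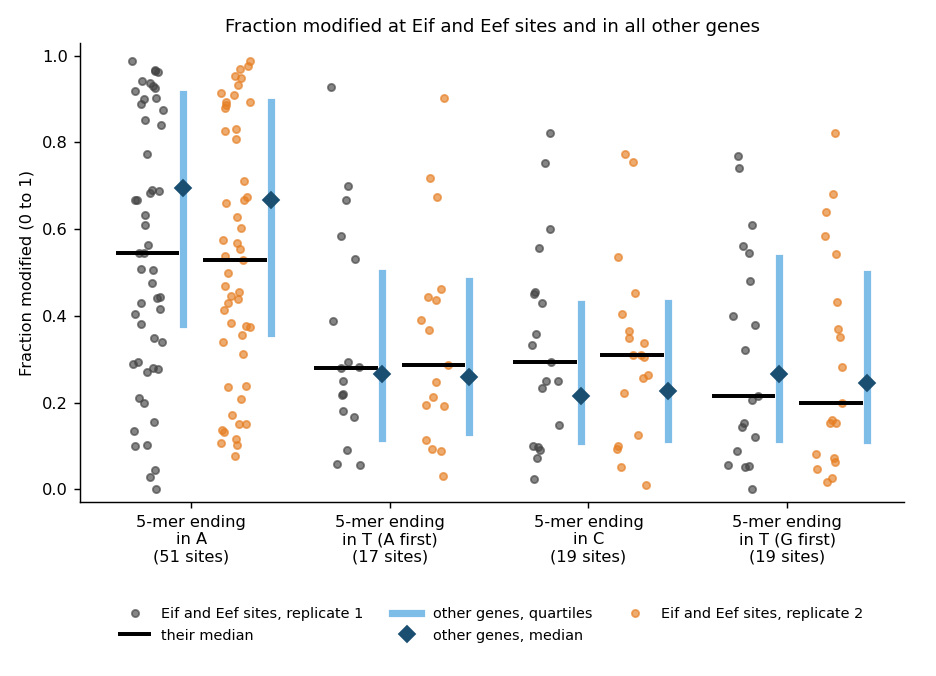
Fraction modified (0 to 1, vertical axis) at 51, 17, 19 and 19 shared Eif and Eef sites of the 4 5-mers, named on the horizontal axis by their first and last base. Each point is 1 site in 1 replicate and black bars are their medians, while blue bars and diamonds give the quartiles and median of other genes. At the 5-mer ending in A the black bars (0.546 and 0.529) lie below the diamonds (0.696 and 0.667), and the points span nearly the whole axis.

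High and low sites were counted by fixed limits that both replicates had to meet. At GGACA, 14 of 51 sites in 10 genes had a fraction of at least 0.8, which is 27.5% (95% Wilson interval 17.1 to 40.9, counting error only). The background over other genes was 35.2%, inside that interval. No GGACA site of a translation factor was under 0.1 in both replicates, a count of 0 of 51 that allows a share of up to 7.0% by the same interval, against 2.65% of other genes. Among the 55 sites at the other 5-mers, 1 reached 0.8, in Eef2, which is 1.82% (0.322 to 9.61) against 6.04%. Of the same 55 sites, 10 sites in 10 genes were under 0.1, which is 18.2% (10.2 to 30.3) against 14.3%. Each of the 4 backgrounds lay within the interval of the translation factors, so none of these shares was set apart from other genes at this number of sites.

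Described by role, every group of factors held sites over a wide range. The mean fraction over shared sites was 0.304 ± 0.0400 in the eIF1 and eIF1A genes (5 sites in 3 of 3 listed genes), 0.360 ± 0.0320 in eIF2 and eIF2B (12 sites in 5 of 9) and 0.385 ± 0.00463 in eIF3 (28 sites in 10 of 13). It was 0.434 ± 0.0220 in the eIF4 group (18 sites in 8 of 10), 0.507 ± 0.0315 in other initiation factors (9 sites in 3 of 5), 0.478 ± 0.00685 in elongation factors (19 sites in 5 of 7) and 0.496 ± 0.0183 in regulators and related genes (15 sites in 5 of 11), each as SD with n = 2. These means mix 5-mers in different proportions. Site means ranged from 0.0391 to 0.958 within eIF3 and from 0.00825 to 0.965 within the eIF4 group, far more than the groups differed from each other.

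**Figure D2:**
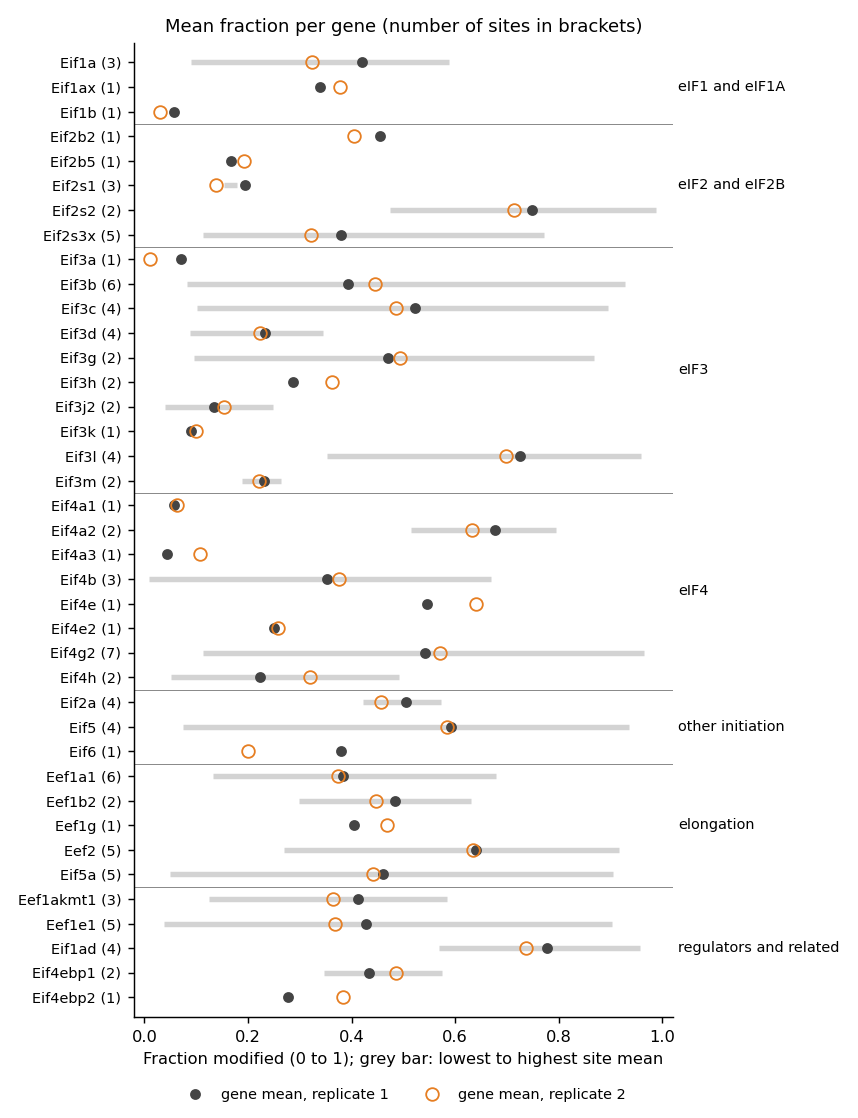
Mean fraction modified (0 to 1, horizontal axis) of the 39 genes with shared sites, ordered by role, in replicate 1 (filled) and replicate 2 (open), with the number of sites in brackets and the range of site means as a grey bar. Eif1ad (0.778 and 0.737) and Eif2s2 (0.748 and 0.714) stand at the upper end, and Eif3a (0.0714 and 0.0111) and Eif1b (0.058 and 0.0307), with 1 site each, at the lower.

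Among the factors that first bind the small subunit, eIF1A keeps the ribosome scanning for a start codon and is made from the autosomal Eif1a and the X-linked Eif1ax. Eif1a held GGACA sites at 578 and 710 and an AGACT site at 1043. Its fractions were 0.563, 0.609 and 0.0909 in replicate 1 and 0.313, 0.568 and 0.0875 in replicate 2, at 35 to 40 and 86 to 95 reads. The 2 GGACA sites were above the AGACT site in both replicates, and the first of them was among the 3 least repeatable sites of all. Eif1ax had 1 site, GGACA at 480, with 0.339 and 0.377 at 131 and 213 reads. Eif1b, which encodes a protein close to the start codon selection factor eIF1, also had 1 site, AGACT at 756. With 0.058 and 0.0307 at 80 and 179 reads it was 1 of the 5 lowest sites among those read 50 times or more in both.

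The eIF2 complex carries the initiator tRNA, and its alpha subunit, made from Eif2s1, is the target of the stress kinases. The 3 sites of Eif2s1 were all low. GGACA at 663 read 0.156 and 0.151, GGACT at 764 read 0.206 and 0.152, and AGACT at 1375 read 0.220 and 0.113. Eif2s2, the gene of the beta subunit, contrasted with it. Its GGACA site at 1278 had 0.988 in replicate 1 (86 reads) and 0.989 in replicate 2 (176 reads), the highest of all sites with at least 50 reads in each. The GGACA site at 1089, 189 bases before it, had 0.508 and 0.439. A second transcript of Eif2s2 showed the same order at the same distance, with 0.444 and 0.507 at 936 and 1.00 and 0.990 at 1125. Reads that fit both transcripts may have been divided between them, so the 2 pairs are not separate evidence.

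Eif2s3x encodes the gamma subunit of eIF2 and lies on the X chromosome (93232313 to 93256468 as deposited). Its 5 sites ran from 435 to 2525 on the transcript, with 23 to 40 reads in replicate 1 and 61 to 103 in replicate 2. GGACC at 435 read 0.250 and 0.310, AGACT at 585 read 0.217 and 0.213, and GGACA at 1142 read 0.875 and 0.667. Further on, GGACT at 1855 read 0.154 and 0.0714 and GGACT at 2525 read 0.400 and 0.351. The GGACA site was the highest of the gene in both replicates and also the one that differed most between them. The Y-linked copy of this gene, Eif2s3y, was listed with at most 12 and 10 reads. In eIF2B, the factor that reloads eIF2 with GTP, Eif2b2 had GGACC at 1158 with 0.455 and 0.405, and Eif2b5 had AGACT at 2447 with 0.167 and 0.193. The other subunit genes, Eif2b1, Eif2b3 and Eif2b4, reached 20 reads in replicate 2 only.

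The eIF3 complex is the largest initiation factor and holds the small subunit ready to bind mRNA. Its scaffold gene Eif3b (chromosome 5, 140405083 to 140429115) had 6 sites. GGACC at 199 read 0.450 and 0.310. The 4 GGACA sites at 1089, 1224, 2364 and 2615 read 0.381, 0.941, 0.417 and 0.0282 in replicate 1 and 0.712, 0.913, 0.447 and 0.137 in replicate 2. GGACT at 2778 read 0.143 and 0.153. One 5-mer thus gave values from near 0 to over 0.9 on 1 transcript, and the order of the site at 1224 (highest) and the site at 2615 (lowest of the GGACA sites) was the same in both replicates. The site at 1089, with 48 and 108 reads, differed by 0.331 between the replicates, the largest difference of all 106 sites.

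Eif3c encodes another core subunit (chromosome 7, 126145627 to 126165583). Its GGACA sites at 896, 983 and 1886 read 0.774, 0.902 and 0.289 in replicate 1 and 0.826, 0.887 and 0.150 in replicate 2. Its GGACT site at 449 read 0.121 and 0.0824. The 2 high sites lay 87 bases apart, and both were above the other sites of the gene in each replicate. Eif3l (chromosome 15, 78959379 to 78978605), an accessory subunit, read at or above 0.8 in both replicates at 2 of its 4 sites. GGACA at 316, 745 and 1721 read 0.690, 0.888 and 0.967 in replicate 1 and 0.661, 0.831 and 0.948 in replicate 2, and GGACC at 1252 read 0.357 and 0.350. Its coverage of 117 to 159 and 203 to 254 reads was among the deeper of the complex.

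Eif3d encodes a subunit that can itself bind the mRNA cap (chromosome 15, 77843198 to 77855013). All of its 4 sites were GGACA, and all were low. At 185, 308, 404 and 998 the fraction was 0.349, 0.2, 0.100 and 0.280 in replicate 1, and 0.340, 0.236, 0.0769 and 0.237 in replicate 2. The gene mean was 0.227 ± 0.00675 (SD, n = 2), while that of Eif3l was 0.711 ± 0.0200. No site of Eif3d reached the lower quartile of GGACA sites in other genes, 0.381 in replicate 1 and 0.360 in replicate 2.

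The remaining subunits had 1 or 2 sites each. Eif3g read 0.841 and 0.893 at GGACA 1066 and 0.0980 and 0.0928 at GGACC 557. Eif3h read 0.293 and 0.357 at GGACA 792 and 0.282 and 0.368 at AGACT 1121. Eif3m had AGACT sites at 592 (0.182 and 0.194) and 928 (0.281 and 0.248). Low values without a GGACA site were seen in Eif3k, with GGACC at 403 (0.0909 and 0.100 at 215 and 354 reads), in Eif3a, with GGACC at 4195 (0.0714 and 0.0111), and in Eif3j2, with GGACT at 1475 (0.0526 and 0.0256). A second GGACT site of Eif3j2, at 1531, read 0.214 and 0.282, close to the median of other genes. Eif3f and Eif3i were each listed at 1 position in 1 replicate. Eif3f had GGACC at 707 with 0.171 at 256 reads in replicate 1, and Eif3i had AGACT at 1081 with 0.629 at 358 reads in replicate 2.

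The eIF4 proteins recognise the cap, unwind the leader and bridge the mRNA to eIF3. Eif4g2 encodes a relative of the eIF4G scaffold that lacks the part that binds eIF4E (chromosome 7, 110666957 to 110682237), and its 7 sites were the most of any member. GGACA at 692, 1686, 1866 and 4384 read 0.930, 0.506, 0.962 and 0.852 in replicate 1 and 0.932, 0.555, 0.969 and 0.807 in replicate 2. GGACC at 1119 and 1427 read 0.148 and 0.100 in replicate 1 and 0.223 and 0.125 in replicate 2. AGACT at 4473 read 0.294 and 0.390. The sites at 692 and 1866 were among the 5 highest of the family at 50 or more reads, and every shared GGACA site of the gene was above its other shared sites in both replicates. An AGACT position at 427, listed in replicate 2 only, read 0.773 at 348 reads, above the GGACA site at 1686. Eif4g1, which encodes the main scaffold, had 60 listed positions spread over 9 transcripts and no more than 12 and 37 reads at any of them. Eif4g3 was listed in replicate 2 only, with at most 8 reads.

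The RNA helicase eIF4A has 2 cytoplasmic genes that differed at the same 5-mer. Eif4a1 had GGACT at 1164 with 0.0563 and 0.0624 at 525 and 1083 reads. Eif4a2 had GGACT at 1209 with 0.769 and 0.821 at 31 and 59 reads, and AGACT at 1774 with 0.583 and 0.444. The GGACT site of Eif4a2 was higher by 0.713 in replicate 1 and 0.759 in replicate 2, while neither site differed by more than 0.0522 between replicates. Whether the 2 positions match each other in the aligned genes was not analysed here. Eif4a3, whose protein belongs to the exon junction complex, had GGACA at 1266 with 0.0435 and 0.107 at 96 and 174 reads, the only GGACA site among the 5 lowest of those read 50 times or more in both replicates.

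Eif4b encodes a cofactor of the helicase. Its AGACT sites at 772 and 1546 read 0.667 and 0.389 in replicate 1 and 0.673 and 0.438 in replicate 2. Its GGACT site at 2978 read 0 and 0.0165 at 84 and 234 reads, the lowest of all sites read 50 times or more in both. Eif4h, another cofactor, had GGACA at 533 with 0 and 0.101 and at 841 with 0.444 and 0.538. The cap-binding protein gene Eif4e had GGACT at 888 with 0.546 and 0.640 at 89 and 213 reads, and its relative Eif4e2 had GGACC at 237 with 0.250 and 0.257. The 2 cap-binding genes were read at different 5-mers, so their values are not compared.

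**Figure D3:**
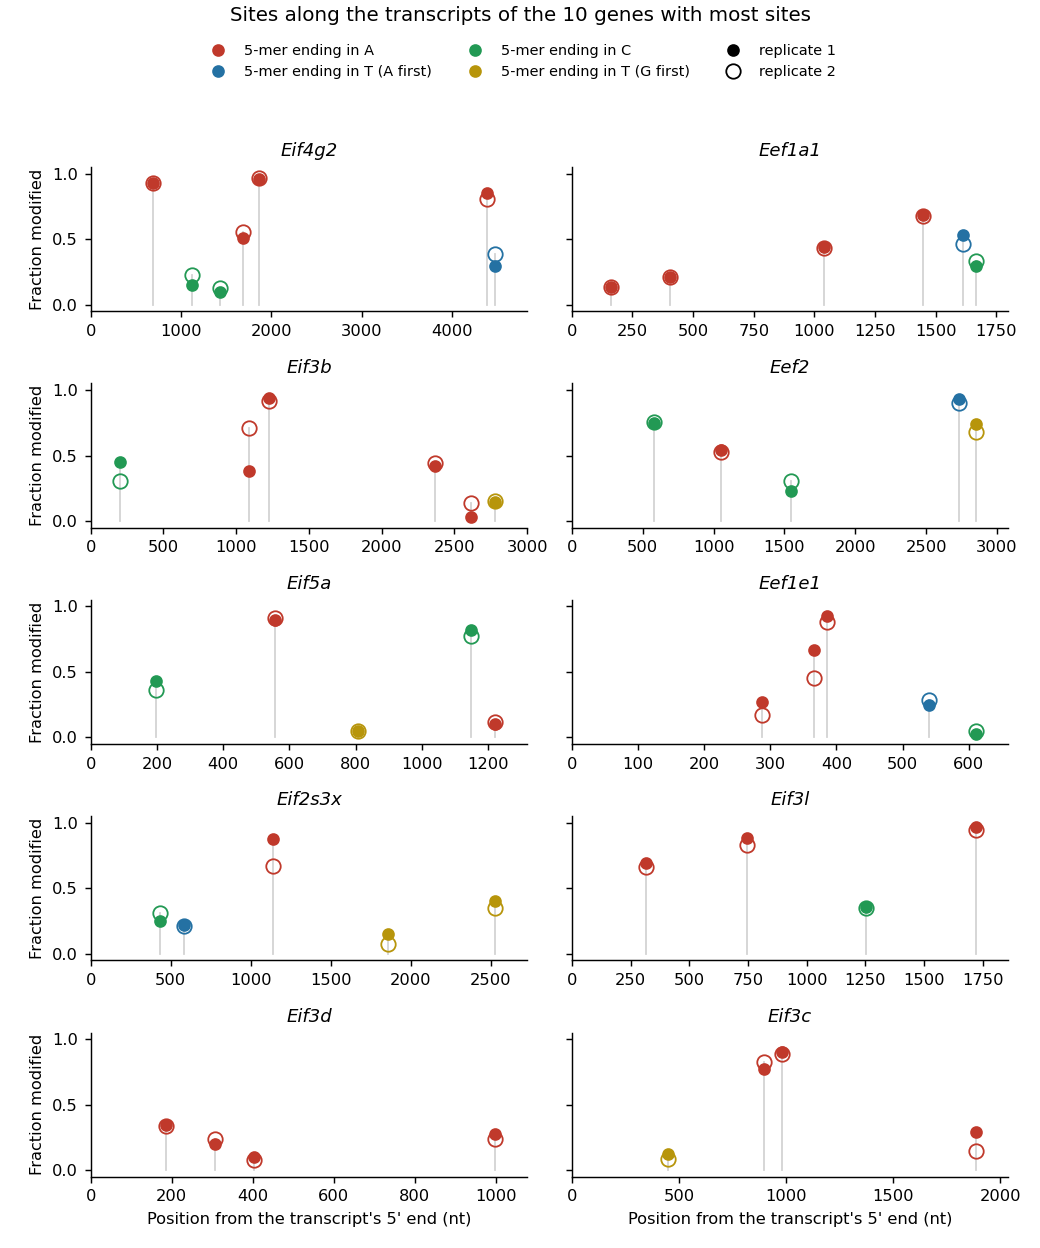
Fraction modified (0 to 1, vertical axis) along the transcript (nt from its 5′ end, horizontal axis) for the 10 genes with most shared sites, with filled points for replicate 1, open points for replicate 2 and 1 colour per 5-mer. The GGACA sites of Eef1a1 climb from 0.134 to 0.683 in replicate 1, those of Eif5a fall from 0.900 to 0.102, and all 4 sites of Eif3d stay under 0.35.

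Other initiation factors act at start codon recognition and subunit joining. Eif5, the gene of the protein that triggers GTP hydrolysis on eIF2, had 4 sites with means from 0.0751 to 0.936. GGACA at 271 read 0.919 and 0.952, and AGACT at 2229 read 0.0571 and 0.0930. A second AGACT site, at 3095, read 0.700 and 0.718, so 1 AGACT site of Eif5 lay below the lower quartile of other genes (0.117 and 0.133) and the other above the upper (0.5 and 0.480). Eif2a, which encodes an initiator tRNA binding protein, had 4 sites whose means stayed between 0.421 and 0.572. Eif6, whose protein keeps the large subunit from joining too early, had GGACT at 295 with 0.379 and 0.2 at 36 and 79 reads. Eif2d and Eif5b reached 20 reads in replicate 2 only.

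Depth ranged widely among the elongation factor genes. Eef1a1 encodes eEF1A, which brings aminoacyl-tRNA to the ribosome (chromosome 9, 78385731 to 78396433). Its highest coverage was 4768 reads in replicate 1, rank 2 of the listed genes, and 8985 in replicate 2, rank 1. The GGACA sites at 163, 403, 1038 and 1446 read 0.134, 0.210, 0.442 and 0.683 in replicate 1 and 0.132, 0.209, 0.430 and 0.675 in replicate 2. AGACT at 1611 read 0.532 and 0.462, and GGACC at 1666 read 0.294 and 0.337. The 4 GGACA sites rose in order along the transcript in both replicates, with steps of at least 0.0764, while no GGACA site differed by more than 0.0121 between replicates. The AGACT and GGACC sites, at similar depth, differed more between replicates than the GGACA sites did. Eef1a1 has many near-identical processed copies in the genome, and how the authors assigned such reads is not given in the sources used here.

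The order along Eef1a1 was not general. Of 14 translation factor transcripts with at least 2 shared GGACA sites, 6 had the last above the first in both replicates, 6 had it below and 2 were mixed. The 6 are 42.9%, against a background of 42.7% in other genes (186 of 436). Among those that rose were Eef1e1 (0.270 to 0.926 in replicate 1), Eif2s2 and Eif3l. Among those that fell were Eif5a (0.900 to 0.102), Eif3c and Eif3b. Coverage was higher at the last than at the first site in both replicates on 9 of the 14 transcripts, as on Eef1a1 from 3512 to 4616 reads in replicate 1. Its part in the order of sites was not tested.

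Eef2 encodes eEF2, which moves the ribosome by 1 codon at a time (chromosome 10, 81012465 to 81018332). Its GGACC sites at 579 and 1547 read 0.752 and 0.233 in replicate 1 and 0.754 and 0.305 in replicate 2. AGACT at 2731 read 0.928 and 0.903, and GGACT at 2852 read 0.742 and 0.681. GGACA at 1056 read 0.546 and 0.529. Its AGACT site at 2731, with 473 and 1065 reads, was the only one of the 55 sites outside GGACA to reach 0.8 in both replicates, and without Eef2 the count was 0 of 51. At each of the other 5-mers, at least 1 Eef2 site was above the upper quartile of other genes in both replicates, which was 0.5 and 0.480 for AGACT, 0.427 and 0.429 for GGACC, and 0.534 and 0.497 for GGACT.

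Eif5a encodes a factor, named for initiation, that helps the ribosome through peptide bonds that form slowly (chromosome 11, 69807540 to 69812784). Its 5 sites had 428 to 449 reads in replicate 1 and 724 to 751 in replicate 2. GGACC at 197 and 1148 read 0.429 and 0.823 in replicate 1 and 0.366 and 0.774 in replicate 2. GGACA at 557 and 1220 read 0.900 and 0.102 in replicate 1 and 0.908 and 0.116 in replicate 2. GGACT at 808 read 0.0528 and 0.0467. A GGACC site was therefore above a GGACA site of the same transcript only 72 bases away, by 0.720 in replicate 1 and 0.658 in replicate 2. On 4 other transcripts of Eif5a a GGACC site between positions 1064 and 1242 had means of 0.667 to 0.781 at 22 to 28 and 30 to 55 reads. Those transcripts overlap and may share reads, and whether the site is the same base of the gene was not analysed here. Eif5a2, the second gene for this factor, reached 20 reads in replicate 2 only.

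The exchange factor eEF1B recharges eEF1A with GTP. Of its genes, Eef1b2 read 0.633 and 0.628 at GGACA 450 (712 and 1187 reads) and 0.333 and 0.265 at GGACC 224, and Eef1g read 0.404 and 0.468 at GGACA 1223 (539 and 1130 reads). The GGACA sites of both genes were below the median of other genes, 0.696 and 0.667. Eef1d had no shared site. On its transcript, AGACT at 744 and 1017 read 0.352 and 0.422 in replicate 2 at 238 and 228 reads, while no position of the gene had more than 9 reads in replicate 1.

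Among regulators and related genes, Eef1e1 encodes a small protein of the multi-synthetase complex that resembles elongation factor subunits (chromosome 13, 38828183 to 38843034). Its GGACA sites at 288, 366 and 386 read 0.270, 0.667 and 0.926 in replicate 1 and 0.171, 0.455 and 0.879 in replicate 2. AGACT at 540 read 0.250 and 0.286, and GGACC at 611 read 0.0238 and 0.0513. The 3 GGACA sites lay within 98 bases and kept their order in both replicates, at 41 to 44 and 85 to 88 reads. Those at 366 and 386 were the closest pair of shared sites in the family, 20 bases apart, and differed by 0.259 and 0.425.

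Eif1ad, which encodes a protein with an eIF1A-like domain, had 4 sites within 93 bases. GGACC at 1053 read 0.6 and 0.537, GGACT at 1077 read 0.609 and 0.543, GGACA at 1104 read 0.938 and 0.977, and GGACA at 1146 read 0.966 and 0.894. All 4 were above the median of other genes at their 5-mer, and the gene mean of 0.758 ± 0.0286 (SD, n = 2) was the highest of the 39 genes, at no more than 38 and 58 reads. Eef1akmt1, the gene of a lysine methyltransferase of eEF1A, had 3 sites with means from 0.124 to 0.583. The repressors of eIF4E were read at Eif4ebp1, with GGACA at 428 (0.546 and 0.602) and GGACT at 698 (0.322 and 0.370), and at Eif4ebp2, with GGACA at 2276 (0.278 and 0.383). The kinases of eIF2 had no shared site: Eif2ak1 and Eif2ak4 were listed in replicate 2 only, and Eif2ak2 and Eif2ak3 in neither.

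The replicates were then compared site by site. Over the 106 sites, which share transcripts and libraries and are not independent, Pearson's r was 0.964 and Spearman's rho 0.960, given as descriptions. Replicate 2 read higher at 49 sites and lower at 57, with a median difference of -0.0046 and an SD of 0.0779. Over other genes r was 0.948 and the SD 0.100. The spread was narrower at higher depth. For the 33 sites read 100 times or more in both, the SD was 0.0413 and the largest difference 0.0855, whereas at 50 sites with a lower coverage of 20 to 49 reads the SD was 0.0990. A difference of over 0.2 was seen at 4 sites, or 3.77%, against 6.03% in other genes. The 3 largest were GGACA sites, Eif3b 1089 (0.381 and 0.712), Eif1a 578 (0.563 and 0.313) and Eef1e1 366 (0.667 and 0.455). All of these had fewer than 50 reads in replicate 1.

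**Figure D4:**
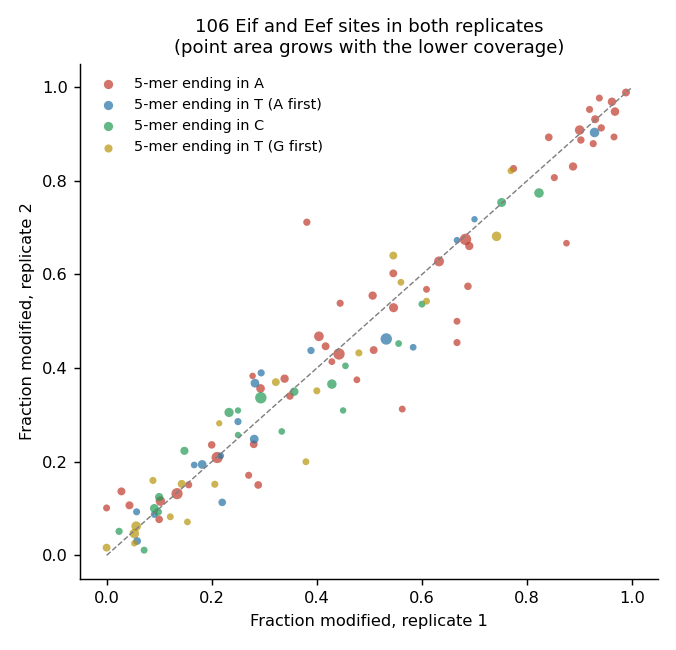
Fraction modified at the 106 shared sites in replicate 1 (horizontal axis) and replicate 2 (vertical axis), both from 0 to 1, with 1 colour per 5-mer, point area growing with the lower coverage and the dashed line marking equal values. Large points lie close to the line (SD of the difference 0.0413 at 100 or more reads in each), and the point farthest above it is Eif3b 1089 (0.381 and 0.712).

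Some deeply read positions were listed in 1 replicate only. On all transcripts, 28 positions in 19 of the genes had at least 50 reads in 1 replicate and no entry in the other, 8 in replicate 1 and 20 in replicate 2. The same count was not made over other genes. The next count, given with its background, used 1 transcript per gene. To set coverage aside, positions were kept only if the other replicate listed positions with at least 20 reads on both sides of them on the same transcript. Each replicate was checked against the other in turn, so a position with at least 50 reads in both could count in both directions. Of 88 such checks 13 found no entry, which is 14.8% in 7 genes, against a background of 12.9% in other genes (337 of 2613). These are shares of checks, not of positions. The 13 unlisted positions had a median fraction of 0.266, and the checks that found an entry 0.447, against 0.290 and 0.341 in other genes. These medians mix 5-mers in different proportions. No entry was found in 4 of 14 AGACT and 5 of 49 GGACA checks of the translation factors, against 94 of 428 and 80 of 928 in other genes. Eif5a AGACT 1141 had 0.603 at 449 reads in replicate 1 and no entry in replicate 2, where the neighbours at 808 and 1148 had 747 and 751 reads. In Eif4g2, GGACA 801 (0.790 at 377 reads) and 1111 (0.744 at 394 reads) were listed in replicate 2 only, although positions around them had 96 and 109 reads in replicate 1. Positions without an entry in 1 replicate thus included high fractions in the other, and the counts of shared sites are counts of entries.

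The 19 genes without a shared site were divided by what the tables held. Of these, 10 reached 20 reads in replicate 2 only, 5 were listed in replicate 2 only (Eif2ak1, Eif2ak4, Eif3i, Eif4enif1 and Eif4g3), 1 in replicate 1 only (Eif3f), and 3 stayed under 20 reads in both (Eef1akmt2, Eef2kmt and Eif2s3y).

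For context, 55 other genes that act with these factors were read the same way. Of these, 46 were listed and 17 held 44 shared sites. Their 14 GGACA sites had medians of 0.673 and 0.574, and their 30 sites at other 5-mers 0.156 and 0.211. Rack1, the gene of a scaffold protein of the small ribosomal subunit, read 0.913 and 0.925 at GGACA 617 with 1546 and 2582 reads. Rheb, which encodes the GTPase that activates mTOR, read 0.0893 and 0.0720 at GGACA 968. The partners thus also held both a high and a low site at GGACA.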

How the data were processed

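Direct RNA reads (RNA002 chemistry, 1 flow cell per library) came from 2 replicates of 1 group. The authors deposited, per the file headers, a coverage for each position, which is a count of reads, and a fraction modified, whose denominator is not given. Per the submitters' processing notes the build was mm10, with no role stated. The deposited gene coordinates are not those of GRCm38.p6 (1 of 58 starts within 1000 bases of RefSeq's), so they are printed as deposited with no build named. The aligner, modification caller and transcript reference are not given in the sources used here. Nor is it given whether listed positions are all those examined. No listed position had under 5 reads. Placement in coding sequence or untranslated regions was not analysed here, and the table named minus was not used.

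For each gene 1 transcript was kept, that with most positions of 20 or more reads summed over the replicates. Positions with 20 or more reads in both replicates were matched on transcript version and end coordinate. Medians, shares and correlations were computed with Python 3.11.15, pandas 2.3.3, numpy 2.4.6 and scipy 1.17.1, and tested on simulated data. Since 2 replicates of 1 group allow no test of a condition, and sites are not replicates, no p-value is given. No interval was set around single fractions. Positions of genes without a name (153 transcripts) were left out.

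Genes with 3 or more shared sites were named, with every site for the 10 with most sites (ties by coverage), as were the 5 highest and 5 lowest sites at 50 or more reads, the 3 largest differences between replicates, and paralogs. Of the eye-field marker list, 1 item is not reported here. Members and lists were chosen with earlier results of these data known. The alternatives were other coverage minimums, all transcripts, core factors only, a matching window of 5 nt, unshared sites, leaving out a gene or a replicate, and weighting by coverage.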

Additional observations from a re-analysis of the deposited data

How the results depend on the processing

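At a minimum of 50 reads there were 56 shared sites in 24 genes, and the other translation genes held 23 (111 with no minimum beyond the deposited one). The lower median at GGACA kept its sign under every alternative run: -0.134 with no minimum, -0.196 at 50 reads, -0.172 over all transcripts, -0.164 with core factors only and -0.114 with unshared sites. The alternatives chosen after seeing the data gave -0.133 with 1 median per gene, -0.104 at a lower coverage of 20 to 49 reads, -0.287 at 50 to 99 and -0.115 at 100 or more. At GGACC the difference stayed positive, at 0.0287 with no minimum, 0.0983 at 50 reads, 0.128 over all transcripts, 0.0569 without Eif5a, 0.0290 with unshared sites, 0.0897 per gene, 0.0854 at 20 to 49 and 0.136 at 100 or more. At AGACT it was -0.00085 with no minimum, 0.0323 with core factors, 0.0625 without Eif3m, 0.00885 with unshared sites, 0.0365 at 20 to 49 reads and 0.0552 at 100 or more. At GGACT it turned to 0.0168 with no minimum, 0.0160 with unshared sites and 0.0230 at 20 to 49 reads, and was -0.119 at 50 reads, -0.0764 with core factors, -0.0224 per gene and -0.219 at 100 or more (3 sites). The cause of these turns was not tested. Without Eef2 the share of sites outside GGACA at 0.8 or above was 0%. Pearson's r was 0.926 with no minimum and 0.986 at 50 reads.

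Of 17 gene means, 5 moved by more than the replicate SD when weighted by coverage, 1 with no minimum and 3 of 11 at 50 reads. Leaving out a replicate gave values between -0.150 and -0.138 at GGACA, 0.0142 and 0.0274 at AGACT, 0.0792 and 0.0822 at GGACC, and -0.0524 and -0.0448 at GGACT. A 5 nt matching window left the 106 sites as they were. No paired analysis was possible because both samples belong to the same group. The share of listed fractions that equal a whole number of reads over the coverage, within rounding of the deposited value, was 39.4% and 36.0%. For the rest, the coverage was not the denominator, if the fraction is a share of whole reads. Fewer reads than the coverage may thus stand behind a fraction, also where a coverage is printed beside it above.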
